A study of Drosophila melanogaster with 2 samples.

Results

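Tetraspanins are small proteins that cross the membrane with 4 spans and organise other membrane proteins, such as integrins, adhesion molecules and proteases, into patches at the cell surface and on endosomes. Some of them, known as TspanC8 tetraspanins, bind the protease ADAM10, called Kuzbanian in the fly, which cuts the Notch receptor. The fly genome holds a large tetraspanin family, and many of its genes stand side by side at cytological position 42E on the right arm of chromosome 2. The genes described here are all rows of the deposited expression table whose symbol is Tsp followed by a digit, which gave 34 of 13989 genes. The rows were taken by symbol and not by value, but the family was chosen with earlier results of these data known. The thrombospondin gene Tsp, which shares the prefix, is not a tetraspanin gene and was not taken in.

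RNA was sequenced from wing discs, the larval sheets of epithelium from which wing and dorsal thorax arise, taken from wandering third-instar Drosophila melanogaster larvae kept at 25 °C. The control discs, called GFP, made only green fluorescent protein through the engrailed driver (en>GFP), which works in the posterior compartment. The GFP_Tai discs expressed GFP and Taiman (Tai), which works with the ecdysone receptor as a coactivator of transcription, under the same driver (en>GFP,Tai), so both genotypes carried the driver and GFP. Larvae were sorted for GFP, whole discs were dissected, and 80 to 100 of them were pooled for each genotype's RNA. Every value therefore mixes anterior cells, without the driver, with posterior ones. The series design speaks of triplicates, but the table analysed here gives 1 value per gene and genotype. Differences therefore stand without replicates, the genotypes were not tested against each other, and fewer cells of a type cannot be told apart from less RNA per cell.

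Values are FPKM, fragments scaled by transcript length and library depth, so levels can be compared between genes. Differences are log2((GFP_Tai FPKM + 1) / (GFP FPKM + 1)). This scale shrinks differences of weakly expressed genes, and ratios are therefore given as plain FPKM ratios. Each ratio is given with a 95% counting interval, an exact binomial (Clopper-Pearson) interval from estimated numbers of fragments, which covers counting error only and not the spread between discs. The estimated depth was 8168780 fragments for GFP and 10673479 for GFP_Tai. The tai gene itself stood at 27.1 FPKM in the control and 879 in GFP_Tai, a ratio of 32.4 (counting interval 30.9 to 34). Over the 8275 genes that reached an FPKM of 1 in either library, the median log2 difference was -0.02. Wing disc genes were well detected in both libraries, since the listed regulators nub, vg, rn, sd and ap had FPKM between 25.6 and 112. Their list of 6 also held Ubx, with 66 and 74.8. Of the 6, 1 (Ubx) had a higher value in GFP_Tai, where 46.2% of all 8275 genes did. The median log2 difference of the 6 was -0.08.

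Tetraspanin transcripts covered a wide range of levels in the wing disc. Of the 34 genes, 11 reached an FPKM of 10 in either library and 11 lay between 1 and 10. Another 8 were above 0 but under 1, and 4 were listed at 0 in both genotypes. Tsp42Ee was the most abundant, with 333 FPKM in GFP and 373 in GFP_Tai, and made up 45.1% and 41.8% of the summed tetraspanin FPKM. Its cluster neighbour Tsp42Ea followed with 120 and 156. The sum over all 34 genes was 738.9 FPKM in GFP and 894.1 in GFP_Tai, so the ratio was 1.21. The 17 genes of the 42E cluster supplied 71.2% of this sum in GFP and 66.7% in GFP_Tai, and the 17 genes elsewhere supplied the rest.

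**Figure D1:**
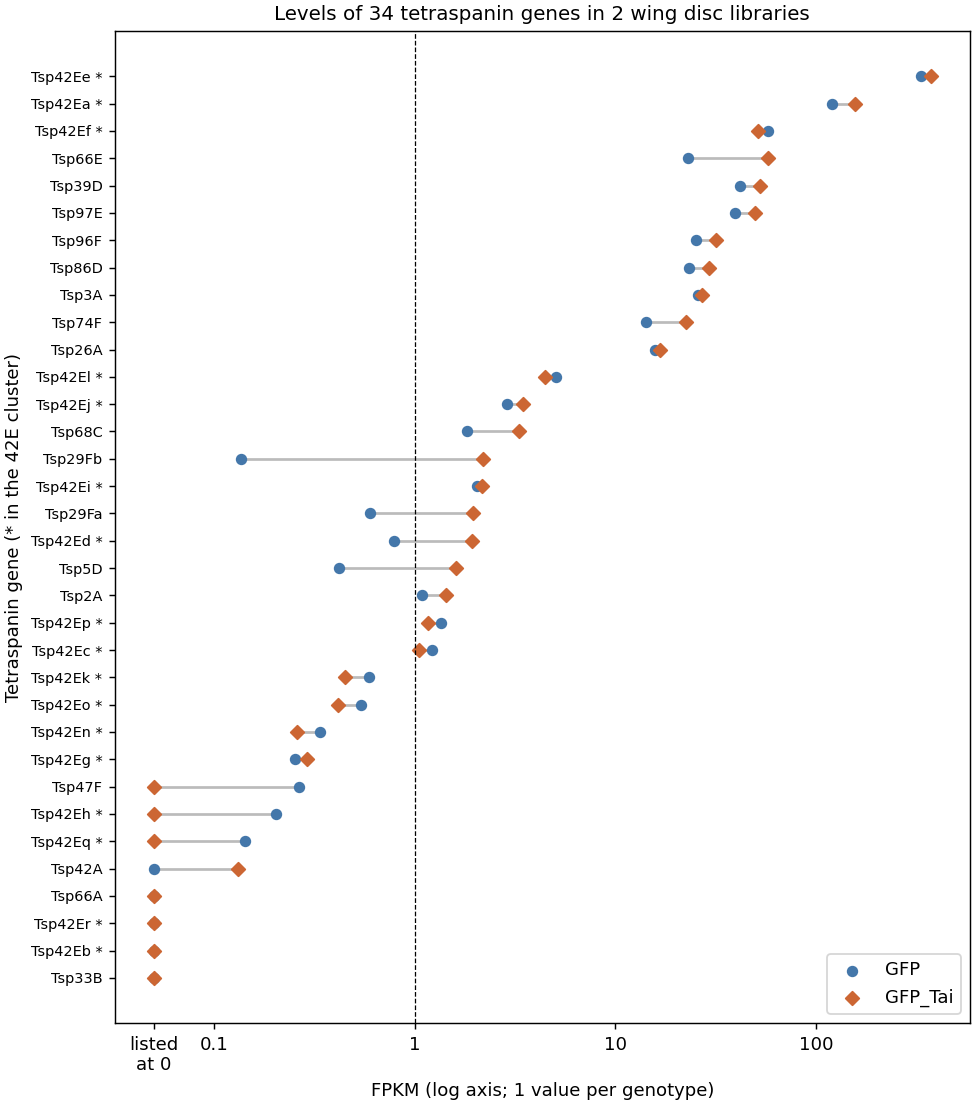
FPKM on a log axis of each of the 34 tetraspanin genes in the GFP library (circles) and the GFP_Tai library (diamonds), 1 value per genotype, with genes listed at 0 placed at the left edge and 42E genes marked by an asterisk. The broken line is an FPKM of 1; levels run from listed at 0 to 373 for Tsp42Ee, and most genes above the line have the diamond to the right of the circle.

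Most tetraspanin genes with measurable expression had a somewhat higher value in the GFP_Tai library. Of the 22 genes that reached an FPKM of 1 in either library, 18 had a higher value in GFP_Tai, where 46.2% of all 8275 genes did. Of these 18, however, 4 (Tsp29Fa, Tsp29Fb, Tsp5D and Tsp42Ed) reached the minimum only in GFP_Tai, so the filter fixed their direction, while 0 members reached it only in GFP. Among the 18 members that reached an FPKM of 1 in both libraries, 14 had a higher value, where 44% of 7628 genes did, and their median log2 difference was 0.21, against -0.03. A minimum on the mean of both libraries kept the same 22 members, the 4 included. It therefore gave the same 18 of 22 higher values, where 45.7% of 8067 genes had one, and adds no separate evidence. With all 22 members the median was 0.32, against -0.02 over all genes. Large differences were few. At least 2-fold higher on the log2 scale were 2 of the 22, Tsp66E and Tsp29Fb, where 6.31% of all genes were, and 0 were at least 2-fold lower, where 1.81% of all genes were. Tsp29Fb passed the minimum only through GFP_Tai, and with a pseudocount of 5 its log2 difference was 0.48 and no longer past 2-fold. With an FPKM of 1 in both libraries, 1 member was at least 2-fold higher, Tsp66E, where 2.98% of genes were. By the plain FPKM ratio, 5 of the 22 were at least 2-fold higher, where 6.55% of the 8089 genes above the minimum, and above 0 in both libraries, were. The same 4 members that reached the minimum only in GFP_Tai are among these 5, each with at most 5 estimated fragments in GFP. The 12 genes under the minimum rested on at most 3 estimated fragments in a library, so no difference was detectable for them at this depth. Of the 34 genes, 12 share exon bases with another annotated gene, and the partners of those described are given with them.

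Abundant members were compared with all genes that reached the same minimum of 10 FPKM, without matching by level. The boundaries of level and fold were chosen after the values were seen. Among the 11 tetraspanin genes that reached an FPKM of 10 in either library, 10 had a higher value in GFP_Tai, where 42.3% of all 6441 genes at this level did. At least 1.2-fold higher were 7 of the 11, against 13.9% of all such genes, and 0 of the 11 were at least 1.2-fold lower, against 16.3%. Their median log2 difference was 0.33, and that of all 6441 genes was -0.04. The counting interval of the ratio lay above 1 for 11 of the 22 genes above the minimum and below 1 for 0, and 3 of the 11 (Tsp29Fa, Tsp29Fb and Tsp5D) are members whose direction the filter fixed. Over all 7942 genes with such an interval, 19.3% lay above 1 and 24.4% below, so an interval without 1 was common in these libraries. In the authors' deposited table, 22 of the tetraspanin genes were tested, with p from 0.3722 for Tsp66E to 0.9719 for Tsp3A, and 0 were called at a q under 0.05, where the authors called 0.131% of all tested genes.

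**Figure D2:**
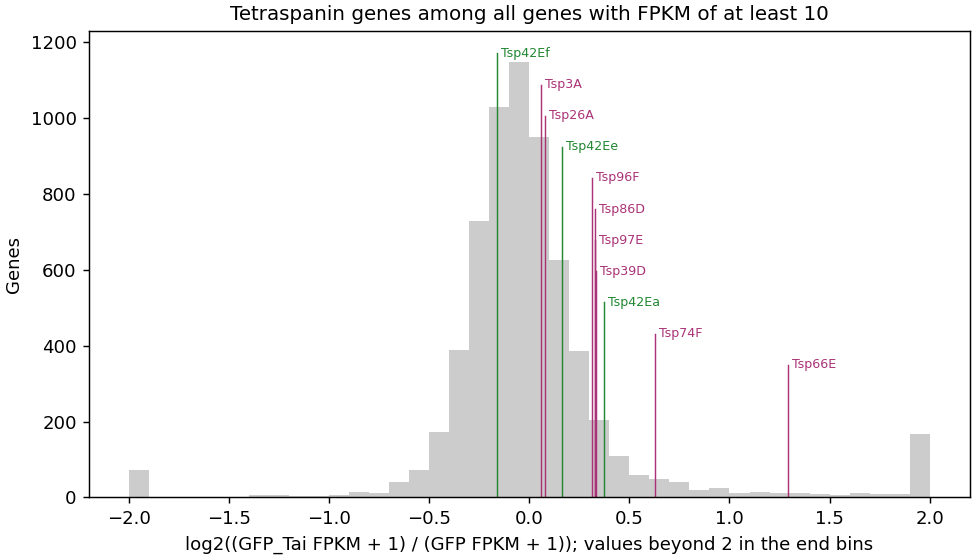
Histogram of the log2 difference of all 6441 genes that reached an FPKM of 10 in either library (grey; values beyond 2 are in the end bins), with vertical lines at the 11 tetraspanin genes of that level, green for 42E and purple for the others; line heights differ only to separate the names. All lines but that of Tsp42Ef lie to the right of 0, from 0.06 for Tsp3A to 1.29 for Tsp66E.

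Tsp66E had the largest difference among the abundant members. The gene (FBgn0035936) lies on 3L:8912499-8932065 of the BDGP6 annotation, on the plus strand, and encodes a protein of 267 residues. Its FPKM was 22.9 in GFP and 57.5 in GFP_Tai. That is a ratio of 2.51 (counting interval 2.23 to 2.83, about 362 and 1188 fragments). The log2 difference of 1.29 was exceeded by 3.48% of the 6441 genes at this level. The neighbouring genes on the arm had close values in both genotypes. TrpA1 to the left had FPKM 0.134 and 0.103, and CG43783, which starts 170 bp to the right, had 15.7 and 14.6. The gene mfr, which shares 173 exon bases with Tsp66E on the other strand, had 0.0252 and 0.

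Tsp74F came next among the abundant members. This gene (FBgn0036769, 3L:17891820-17895862, minus strand) had FPKM 14.2 in GFP and 22.5 in GFP_Tai. The ratio was 1.58 (counting interval 1.29 to 1.95, about 139 and 287 fragments), or 0.63 on the log2 scale. It therefore stayed under the 2-fold threshold while its interval lay above 1. Both neighbours also had higher values in GFP_Tai, with 0 and 0.561 for CG7402 and 3.42 and 5 for Prestin.

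A group of abundant genes on different chromosome arms had nearly the same ratio. Tsp39D, on 2L, had FPKM 41.6 in GFP and 52.6 in GFP_Tai, so the ratio was 1.26 (counting interval 1.15 to 1.39). Tsp97E, on 3R, which the RefSeq gene table also lists under the name of its mammalian relative Tspan31, had 39.5 and 49.9, a ratio of 1.26 (1.11 to 1.44). Tsp96F, also on 3R, had 25.2 and 31.6, a ratio of 1.25 (1.12 to 1.4). Each of these genes was slightly higher in GFP_Tai, with an interval that did not reach 1. Tsp86D had the same ratio and is described with its TspanC8 relatives. Next to Tsp97E, CG6330 was also higher, with 4.28 and 10.8, and Gr97a had 0 and 0.0891. Next to Tsp39D, dimm was listed at 0 in both genotypes and dtr had 0.685 and 0.692. Next to Tsp96F, CG5890 was listed at 0 in both and SppL had 59.3 and 55.6.

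The genes of the TspanC8 group, Tsp3A, Tsp26A and Tsp86D, act on Kuzbanian and the Notch pathway in the fly. All were well expressed, and their ratios ran from 1.04 to 1.26. Tsp3A had FPKM 25.8 in GFP and 26.9 in GFP_Tai, so the ratio was 1.04 (interval 0.874 to 1.24). For Tsp26A the values were 15.8 and 16.7, a ratio of 1.06 (interval 0.92 to 1.22), and it shares 165 exon bases with Gal on the other strand, which had 2.06 and 3.64. Only Tsp86D, with 23.2 and 29.4 and a ratio of 1.26, had an interval above 1 (1.07 to 1.5), and these intervals overlap. The neighbours of Tsp86D differed in both directions, with 30.7 and 41.6 for SelR and 269 and 223 for Fdh. The ADAM and gamma-secretase genes that cut Notch, listed with Notch and its ligands, showed no shared direction. Of the 10 listed genes, 9 were above the minimum, 4 of them with a higher value in GFP_Tai, where 46.2% of all 8275 genes had one. Of the 9, 0 were past 2-fold in either direction, and the median log2 difference was 0.00. The protease gene kuz had FPKM 37.0 and 37.2 and the receptor gene N had 91.7 and 94.3. The largest differences of that list were in pen-2, a gamma-secretase subunit, with 36.4 and 49.1, and in the Notch ligand gene Ser, with 80.4 and 64.3.

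**Figure D3:**
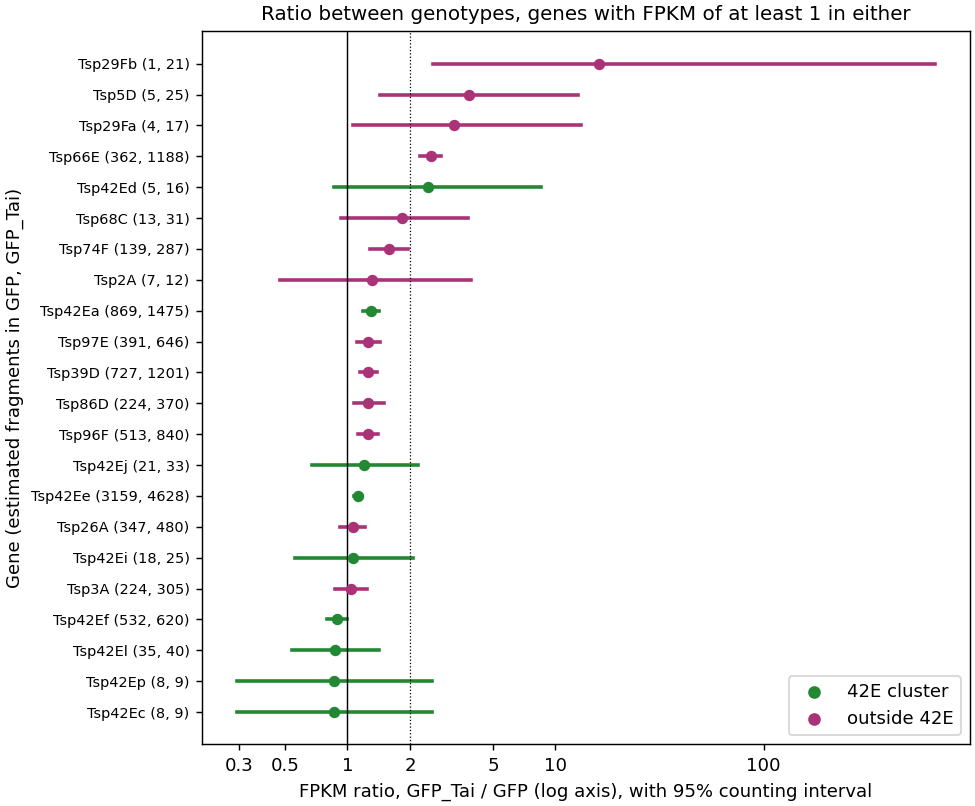
FPKM ratio of GFP_Tai to GFP on a log axis for the 22 tetraspanin genes that reached an FPKM of 1 in either library, with 95% counting intervals as bars (no replicates) and the estimated fragments in GFP and GFP_Tai after each name; the solid line is a ratio of 1 and the dotted line 2. The genes outside 42E (purple) all have ratios above 1 (for Tsp29Fa, Tsp29Fb and Tsp5D by the filter), up to 16.1 for Tsp29Fb, whose interval from 1 and 21 fragments is the widest, while the 42E genes (green) lie on both sides of 1.

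Among weakly expressed members outside 42E, Tsp29Fb had the highest ratio, and its neighbour Tsp29Fa also had a higher value in GFP_Tai. These genes stand head to tail on the plus strand of 2L, at 8933962-8936096 and 8937390-8939743, 1294 bp apart. Tsp29Fa had FPKM 0.600 in GFP and 1.95 in GFP_Tai, so the ratio was 3.25 (interval 1.06 to 13.3, about 4 and 17 fragments). Tsp29Fb had 0.136 and 2.19, a ratio of 16.1 (interval 2.58 to 665, about 1 and 21 fragments). Both were near the limit of detection in GFP and at about 2 FPKM in GFP_Tai, and their ratios are known only within wide bounds. The genes flanking the pair did not share the higher values, with FPKM 40.0 and 33.6 for CG34398 on the left and 22.3 and 22.0 for C1GalTA on the right. The antisense gene asRNA:CR46071 overlaps 745 exon bases of Tsp29Fa and Argl overlaps 19 of Tsp29Fb, and without strand their reads cannot be told apart.

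Tsp5D also had a higher value in GFP_Tai, but in a stretch of the X chromosome where other genes were higher too. It had FPKM 0.419 and 1.60, a ratio of 3.83 (interval 1.44 to 12.8, about 5 and 25 fragments). The gene CG5928, which overlaps 134 exon bases of Tsp5D on the other strand, had 0.626 and 7.35. Of its neighbours, CG5921 had 0.649 and 9.43 and CG4666 had 0.291 and 11.1. The part of overlapping reads in the value of Tsp5D was not tested.

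Tsp68C and Tsp2A were also detected at low levels. Tsp68C had FPKM 1.82 in GFP and 3.32 in GFP_Tai, so the ratio was 1.83 (interval 0.928 to 3.8). It lies 738 bp from the blood cell gene Hml, which had 0.842 and 1.44. All 5 listed blood cell markers had higher values in GFP_Tai, 1 of them at least 2-fold on the log2 scale. Of all 8275 genes, 46.2% and 6.31% did. The summed FPKM of these markers was 7.70 in GFP and 15.1 in GFP_Tai. Of them, Hml, srp and NimC1 reached the minimum only in GFP_Tai, so the filter fixed their direction. By the plain FPKM ratio, NimC1 (6.79) and srp (2.33, interval 1.13 to 5.04) were past 2-fold, where 6.55% of 8089 genes were. The interval of He (0.724 to 3.82) included 1. The part of blood cells in the value of Tsp68C was not tested. Tsp2A, a core component of smooth septate junctions in the gut and Malpighian tubules, had 1.09 and 1.43, a ratio of 1.31 (interval 0.476 to 3.93). Neither interval excluded equal values. The genes of its junction partners were nearly silent in GFP, with mesh (listed as CG31004) at 0.0324 and 0.397, Ssk (listed as CG6981) at 0.191 and 0.584, and hoka (listed as CG13704) at 0 and 1.01. Of these 3 partners 1 was above the minimum, hoka, which is at least 2-fold higher by construction.

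Values of the 42E cluster differed in both directions. The cluster spans 73.4 kb of 2R, with 17 genes under Tsp42E symbols, 14 of them on the plus strand, and its proteins have 211 to 250 residues, a median of 222, against 228 to 362 and a median of 267 for the genes elsewhere. Of the 9 cluster genes above the minimum, 5 had a higher value in GFP_Tai, where 46.2% of all 8275 genes did. The median log2 difference of the 9 was 0.06, against -0.02 over all genes. The cluster genes were thus near the share of all genes. Of the 13 genes above the minimum outside the cluster, all 13 had a higher value, with a median of 0.33, but 3 of them and 1 of the cluster genes reached the minimum only in GFP_Tai. With an FPKM of 1 in both libraries, 4 of 8 cluster genes and 10 of 10 others had a higher value, with medians of -0.03 and 0.33. Over all 7628 genes that reached it in both, 44% had a higher value and the median was -0.03. The 4 members above the minimum with a lower value, Tsp42Ec, Tsp42Ef, Tsp42El and Tsp42Ep, were all in the cluster. Each of their counting intervals included 1, however. Of the 9 cluster intervals, 2 lay above 1, 0 lay below and 7 included 1. Of the 13 elsewhere, 9 lay above 1, 0 lay below and 4 included 1. Of those 9, 3 belong to members that reached the minimum only in GFP_Tai. Over all 7942 genes with such an interval, 19.3% lay above 1 and 24.4% below. With 1 library per genotype, this difference between cluster and other members was not tested.

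Expression within the cluster was concentrated in 3 genes, Tsp42Ea, Tsp42Ee and Tsp42Ef. Tsp42Ee (2R:7012254-7018362) had a ratio of 1.12 (counting interval 1.07 to 1.17) and Tsp42Ea (2R:6992676-7004259) had 1.30 (1.19 to 1.41). By contrast, Tsp42Ef had FPKM 57.8 in GFP and 51.5 in GFP_Tai, so the ratio was 0.891, with an interval that began at 0.793 and reached 1. Adjacent genes of the cluster thus had ratios on either side of 1. Tsp42Ea shares 97 exon bases with CG30159, which had 73.5 and 63.7 and so a difference in the other direction.

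The rest of the cluster was expressed at a few FPKM or less. Tsp42El had FPKM 5.07 in GFP and 4.43 in GFP_Tai. Tsp42Ej, known as sunglasses, a lysosomal tetraspanin that acts in the turnover of rhodopsin in the eye, had 2.88 and 3.46, and shares 107 exon bases with Tsp42Ek. Tsp42Ei, which shares 182 with CG33914, had 2.04 and 2.17. The counting intervals of these genes included equal values. So did that of Tsp42Ed, with 0.783 and 1.92, a ratio of 2.45 (interval 0.857 to 8.55). Tsp42Ec and Tsp42Ep had the same ratio of 0.861, each from an estimated 8 and 9 fragments. Tsp42Ep shares 889 exon bases with Tsp42Eo on the other strand, so the values of these genes are uncertain.

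Several cluster genes were at the edge of detection. Tsp42Ek, Tsp42En and Tsp42Eo shared a ratio of 0.765, the value that equal numbers of fragments in both libraries give, from an estimated 3, 2 and 3 fragments. Tsp42Eg rested on 2 and 3 fragments. Tsp42Eh and Tsp42Eq rested on an estimated 1 fragment in GFP, and GFP_Tai listed them at 0. Tsp42Er and Tsp42Eb were listed at 0 in both genotypes, but the table places Tsp42Eb on an unplaced sequence and not on 2R. Outside the cluster, Tsp33B was listed at 0 in both genotypes, as was Tsp66A, whose exons overlap those of CG42661 and CG42660. Tsp47F, with 0.266 FPKM in GFP, was listed at 0 in GFP_Tai, and Tsp42A had 0.131 FPKM in GFP_Tai and 0 in GFP. A listed 0 may also reflect an estimate that failed, so none of these genes is called silent.

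**Figure D4:**
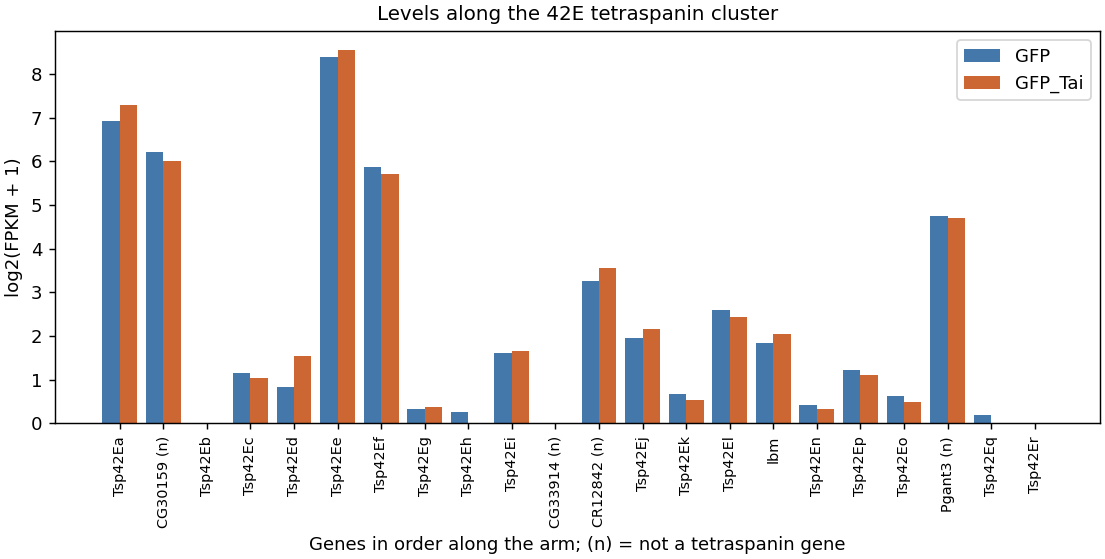
Level as log2(FPKM + 1) in GFP and GFP_Tai of the genes of the 42E cluster that the table holds, in order along the arm and not to distance, 1 value per genotype and no error bars; genes marked (n) are not tetraspanin genes. Tsp42Ea, Tsp42Ee and Tsp42Ef stand out among the tetraspanin genes, and the bars of the genotypes are close to each other at most positions.

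Other genes inside the cluster were compared in the same way. The late bloomer gene lbm, a tetraspanin gene of the same cluster under another symbol that acts in synapse formation by motor neurons, had FPKM 2.58 and 3.14, a ratio of 1.22 (interval 0.639 to 2.38). The table held 4 genes of the stretch that are not tetraspanin genes. Pgant3, a glycosyltransferase gene, had 25.7 and 25.0, and the pseudogene CR12842 had 8.61 and 10.7. CG33914 was listed at 0 in both genotypes, and CG30159 is given above. Values along the stretch thus differed in both directions. Of the other tetraspanin genes under different symbols, TM4SF had 0 and 0.219 FPKM and CG31600 was listed at 0 in both.

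Genes of proteins that tetraspanins are known to associate with showed small differences. Of 9 integrin adhesion genes in the table, 8 were above the minimum, 7 of them with a higher value in GFP_Tai and 0 past 2-fold, and their median log2 difference was 0.17. Among all 8275 genes above the minimum, 46.2% had a higher value and the median was -0.02. The integrin genes scb and mys had the largest differences, with FPKM 20.8 and 32.4 for scb and 79.8 and 105 for mys. The 14 endosomal sorting and vesicle genes had 9 higher values, with 0 past 2-fold, and their median was 0.06. In that list the vesicle-release gene Rab27 went the other way, with 14.3 and 8.88, a ratio of 0.619 (interval 0.481 to 0.794).

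Other families whose proteins cross the membrane with 4 spans had 0 members past 2-fold. Of 11 claudin-like and innexin genes, 7 were above the minimum, all 7 had a higher value in GFP_Tai, and the median log2 difference was 0.17. Among all 8275 genes above the minimum, 46.2% had a higher value and the median was -0.02. Of these 8275 genes, 6.31% were at least 2-fold higher and 1.81% at least 2-fold lower. The interval of the claudin-like gene pck, with FPKM 150 and 153, included 1. The gap junction gene ogre had the largest difference, with FPKM 300 and 457. The tetraspanin genes had a median of 0.32 and 18 of 22 higher values, but 4 of the 22 reached the minimum only in GFP_Tai. With an FPKM of 1 in both libraries, they had a median of 0.21 and 14 of 18 higher values. Over all 7628 genes that reached it in both, 44% had a higher value and the median was -0.03. The lists were not tested against each other.

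Markers of the driver's compartment and of other tissues differed between the libraries as well. For scale, 46.2% of all 8275 genes above the minimum had a higher value in GFP_Tai and 6.31% were at least 2-fold higher. The posterior genes en, inv and hh all had higher values in GFP_Tai (median log2 difference 0.38, summed FPKM 122 and 152). For en, with 43.2 and 46.8, the counting interval of the ratio (0.987 to 1.19) included 1. For the trachea, 3 of 5 markers were at least 2-fold higher, with a summed FPKM of 466 and 1330, while its regulators trh and btl had 21.3 and 20.2 and 3.47 and 3.45. Fat body markers were higher in 5 of 5 genes (20.2 and 31.8 summed). Midgut markers summed to 0.367 and 207, almost all from Jon65Aiii and Jon65Aiv, which were listed at 0 in GFP. Salivary gland markers summed to 0.275 and 11.1, with Sgs7 and Sgs8 listed at 0 in GFP. Adult muscle precursor markers were lower in 4 of 4 genes (66.7 and 59.3 summed). Their median log2 difference was -0.15, against -0.02 over all genes. The counting intervals of twi and Mef2 lay below 1, while those of zfh1 (0.77 to 1.14) and Him (0.752 to 1.28) included 1. Glial markers summed to 88.2 and 94.1, nearly all from Gli (84.8 and 89.5), while repo had 0.221 and 0.271. Of the neuronal markers, elav had 9.32 and 7.19, whereas Syt1 had 0.261 and 0.95 and brp 0.115 and 0.173. The part of these tissues in the tetraspanin values was not tested.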

How the data were processed

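The authors deposited 1 column of FPKM per genotype in Cuffdiff's layout. Cuffdiff 2.2.1, TopHat2 2.0.12, CASAVA 1.4 and build dm6 appear in the submitters' processing notes with no stated role, and the treatment of replicates is not given in the sources used here. A test statistic (a score, not used), p-values and q-values from the authors' own comparison stand beside them, per the file headers. Outside 2L the members' loci did not match dm6, so coordinates, strands, overlaps and transcript lengths come from the BDGP6 annotation (Ensembl release 115), matched by symbol for all 34 members.

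Genes had to reach an FPKM of 1 in either library. The pseudocount was 1 and the threshold 2-fold. Groups followed the genotype label. Fragments were estimated from the low values. Of genes above 0 in both, 304 shared a ratio of 0.7653, taken as equal fragments. With 220 nt taken off transcript lengths, 77.4% of weak genes with a single transcript in GFP and 76.7% in GFP_Tai were whole within 0.1. Evenly spread values would give 20%. The 220 nt and the depth were picked to make single-transcript genes at that shared ratio come out whole. Those genes are among the ones counted, so these percentages are in part set by the fit. Fragments of weak genes were whole numbers that fit both the ratio and the length, and others used the shortest transcript. They serve for intervals only, and no count test was run. Computations used Python 3.11.15, pandas 2.3.3 and scipy 1.17.1 and were tested on simulated data.

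Members and gene lists were chosen with earlier results of these data known. All members were named, with tai, the engrailed-compartment genes, the genes between the cluster's members and, per list, those with the largest differences. Neighbours and other list genes were named after their values were seen. The symbols nSyb, Itgaps4 and Itgaps5 were not matched and are not analysed here. No sequence is shown.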

Additional observations from a re-analysis of the deposited data

How the results depend on the processing

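The limits are a single value per genotype, an unknown treatment of replicates and estimated fragments. Of 52 alternative values for the 5 summary results, 43 stayed within 1.5 times (counts) or 0.1 (medians) of the reported value and 9 moved. The number of tetraspanin genes at least 2-fold higher (2) was 5 with a pseudocount of 0.1, 1 with a pseudocount of 5, 1 at a minimum FPKM of 5, 7 at 1.5-fold and 0 at 3-fold. These follow from the settings, since weak genes gain or lose by the pseudocount. With no minimum, the median difference of the tetraspanin genes (0.32) was 0.17 and that of the 42E cluster (0.06) was -0.11, since genes with 1 to 3 fragments then enter. The number at least 2-fold lower was 0 in each alternative run, and the median outside 42E stayed within 0.1 of 0.33. Of alternatives chosen after seeing the data, a mean FPKM of at least 1, or adding lbm, TM4SF and CG31600, moved none of the results they were run for. An FPKM of 1 in both genotypes left 1 gene at least 2-fold higher and a median of 0.21, since genes that reached the minimum only in GFP_Tai drop out. Of 78 alternative values for single genes, 15 moved by 0.1 or more and 0 changed direction past the threshold. No paired analysis was possible because each genotype has 1 value per gene, and for the same reason no replicate could be left out.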
